A study of Mus musculus with 7 samples.

Results

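The 36 interferon-stimulated genes described here were chosen by name, as a list of genes whose transcription follows interferon signalling, out of 27179 genes in the table of 7 mouse libraries. All 36 were found. The cells came from Wnt1-Cre;tdTomato mice (Wnt1-tdT), whose neural crest cells and their offspring carry tdTomato, a red fluorescent protein released by a Cre recombinase under control of Wnt1, and were collected by fluorescence-activated sorting. Every library pooled 3 mice aged 1 month (2 female and 1 male) and about 50000 cells, so no group had more than 1 library. The primary libraries held tdTomato-positive cells sorted straight from digested subcutaneous fat (adipose primary) or from digested muscle layer of the small bowel (bowel primary). The spheroid libraries held the tdTomato-positive and the tdTomato-negative cells sorted out of mixed bowel spheroids after 10 days of culture. The neurosphere libraries held bowel cells sorted first and then grown for 10 days (M1), bowel cells grown mixed for 10 days, sorted, and grown for 10 days more (M2), and adipose cells grown by that second route. All cultures shared 1 proliferation medium, which held heparin and the growth factors bFGF and EGF, and the labels name no treatment with interferon. RNA of 4 libraries was thus taken at a sort and RNA of 3 after culture that followed the sort. A sort just before RNA was taken and culture after the sort differ between these classes at once and cannot be told apart. RNA taken soon after enzyme digestion of fresh tissue, with 0 days of culture, applies to the primary libraries only. Time in culture differs in part, since both spheroid libraries and the M1 neurospheres had 10 days. The part of each was not tested.

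Interferons are secreted proteins that warn cells of infection. Type I interferons (the alpha forms and beta) act through the receptor pair Ifnar1 and Ifnar2, and interferon gamma acts through Ifngr1 and Ifngr2. Their receptors activate JAK kinases, which phosphorylate STAT proteins. STAT proteins together with IRF9 bind the interferon-stimulated response element (ISRE) in promoters, whereas STAT pairs without IRF9 bind the gamma-activated site (GAS). The genes switched on encode sensors of viral RNA, proteins that block viral translation or degrade RNA, the ubiquitin-like modifier ISG15, and GTPases that attack the vacuoles of intracellular microbes.

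To show the element that ties many of these genes to interferon, the promoters of RefSeq (GRCm38.p6, from 250 bases before to 50 bases after each annotated start) were searched on both strands for the ISRE core, which is GAAA, any 2 bases and GAAA again. A promoter was given for 26 of the 36 genes. The core was present in 14 of those 26 (53.8%), against 3.99% of the 27025 genes with a promoter. The longer form, in which the core is followed by CT, was present in 7 of 26 (26.9%), against 0.303% of genes. The GAS form TTCNNNGAA was present in 7 of 26 (26.9%), against 9.55%, and the TATA box TATAAA in 4 of 26 (15.4%), against 15.7%. The 7 windows that follow are 60 bases each and lie upstream of the start. They were picked to show the spacing of the cores in an IFIT gene, the modifier gene, 2 antiviral effectors and 3 GTPase genes, written 5′ to 3′ along the gene's strand with the cores in capitals. A core on the opposite strand reads TTTC, any 2 bases and TTTC, as in the Ifit1, Rsad2 and Gbp windows.
Ifit1 (chr19:34640779-34640838, plus strand): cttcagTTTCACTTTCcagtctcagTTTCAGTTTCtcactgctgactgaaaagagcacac
Isg15 (chr4:156200850-156200909, minus strand): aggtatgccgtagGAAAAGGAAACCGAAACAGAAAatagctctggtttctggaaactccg
Bst2 (chr8:71537562-71537621, minus strand): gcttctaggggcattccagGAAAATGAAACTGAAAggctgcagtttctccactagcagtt
Rsad2 (chr12:26456538-26456597, minus strand): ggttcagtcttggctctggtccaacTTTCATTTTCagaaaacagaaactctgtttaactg
Gbp2 (chr3:142620579-142620638, plus strand): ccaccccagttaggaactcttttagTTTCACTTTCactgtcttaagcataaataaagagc
Gbp3 (chr3:142559980-142560039, plus strand): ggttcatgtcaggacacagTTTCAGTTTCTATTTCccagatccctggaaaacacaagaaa
Gbp7 (chr3:142530258-142530317, plus strand): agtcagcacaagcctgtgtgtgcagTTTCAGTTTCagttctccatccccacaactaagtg

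Isg15 held 3 cores that overlap in 1 run, Bst2 and Gbp3 held 2 that overlap, and Ifit1 held 2 that stand apart. Ifit2, whose levels differed least between the classes, had 2 RefSeq windows with no core. A match is only a run of letters, and no match says only that the letters are not in that window. Several members lie side by side on GRCm38. Ifit2, Ifit3 and Ifit1 lie on chromosome 19 between 34550550 and 34650009. Gbp7, Gbp3 and Gbp2 lie on chromosome 3 between 142530336 and 142638008, and Rsad2 and Cmpk2 are neighbours on chromosome 12 between 26442743 and 26479837. Mx1 and Mx2 lie on chromosome 16 between 97447035 and 97560901, and Oas2, Oas3 and Oas1a on chromosome 5 between 120730333 and 120907544.

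Between 51885106 and 65301500 reads were assigned to genes per library, so 3 reads correspond to between 0.0459 and 0.0578 CPM (read counts scaled to the total assigned to genes). Levels in the text are plain CPM, while ratios and tests used TMM scaling, which corrects for differences in RNA composition. The crest and glia markers (10 genes such as Sox10 and S100b) summed to between 1473 and 5919 CPM in the 6 libraries of tdTomato-positive cells or neurospheres grown from them, with 10 of 10 at 1 CPM or more in each, and to 29.9 CPM in the tdTomato-negative library. The primary libraries also held transcripts of other cells. Macrophage markers (12 genes) summed to 1997 CPM in adipose primary cells, 5134 in bowel primary cells and 1382 in M1 neurospheres (1213 of it from Lyz2), against 33.1 to 141 in the other 4 libraries. Lymphocyte markers (12 genes) summed to 641 CPM in adipose primary and 52.9 in bowel primary cells, and to 0.995 to 11.3 elsewhere. Mature dendritic cell markers (12 genes) summed to 6622 CPM in adipose primary cells and to 218 to 403 in the others, endothelial markers (11 genes) to 407 and 344 CPM in both primary libraries and 10.8 to 70.6 elsewhere, and smooth muscle markers (8 genes) to 26851 CPM in bowel primary cells. These are bulk libraries, so fewer cells of a type and less RNA per cell cannot be told apart.

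The interferon-stimulated genes stood higher in libraries taken at the sort than in neurospheres. The median level of the 36 genes was 123 CPM in adipose primary cells, 85.8 in tdTomato-positive spheroid cells, 36.8 in bowel primary cells and 27.0 in tdTomato-negative spheroid cells. In neurospheres it was 20.6 CPM in M1, 14.0 in M2 and 4.32 in the adipose library. Every median at the sort was above every neurosphere median, although tdTomato-negative spheroid cells and M1 neurospheres were close. Adipose primary cells had the highest level of 27 of the 36 genes, tdTomato-positive spheroid cells of 8 and tdTomato-negative cells of 1, Ifi44. Adipose neurospheres had the lowest level of 33, and 11 of the 36 genes were under 1 CPM there.

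**Figure D1:**
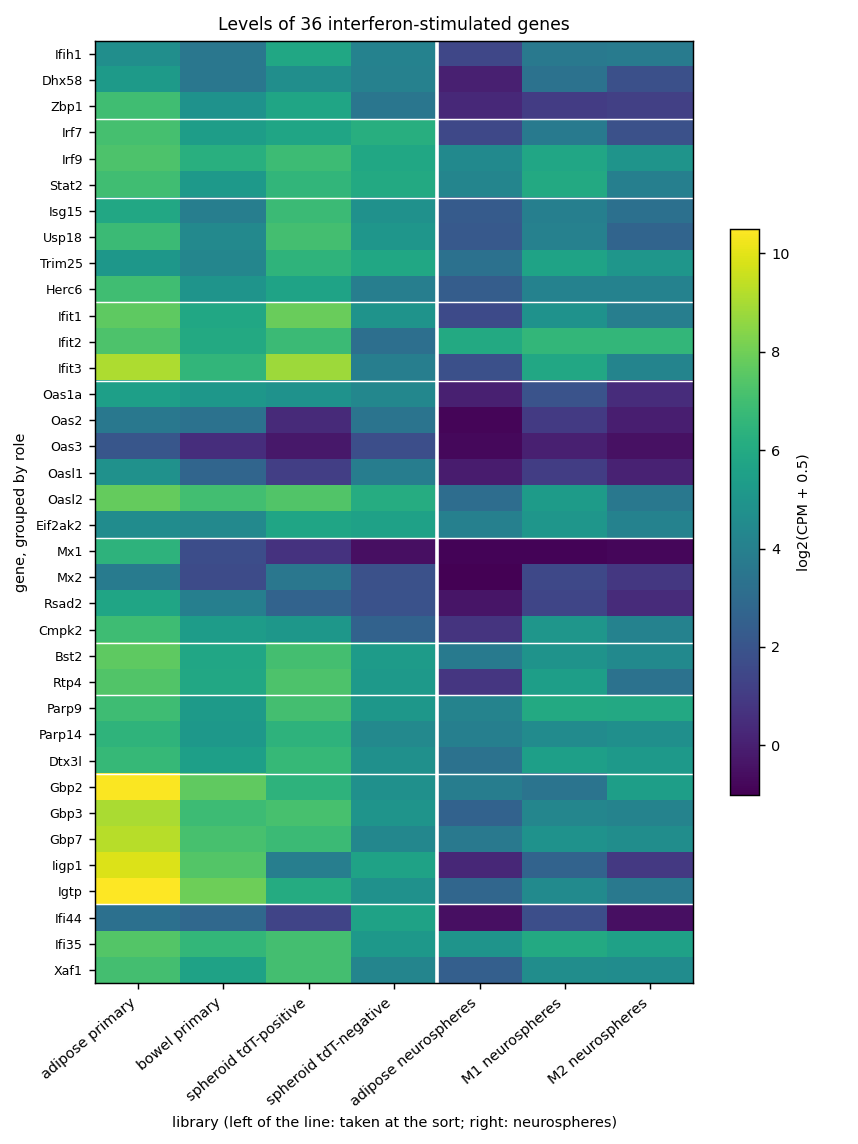
Level of each of the 36 genes (lines, grouped by role) in each of the 7 libraries (columns), as log2(CPM + 0.5) by colour. The 4 columns left of the thick white line were taken at the sort and the 3 to its right are neurospheres; the adipose neurosphere column is the darkest, with a median of 4.32 CPM, and the adipose primary column the brightest, with a median of 123 CPM.

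With TMM-scaled levels, 21 of the 36 genes did not overlap between classes, the lowest library at the sort lying above the highest neurosphere library. The same was true of 687 of 14687 genes tested (4.68%), and 566 genes (3.85%) lay wholly lower at the sort, none of them among the 36. With plain CPM the count was 16 of 36, against 2.85% of genes, because Isg15, Herc6, Ifih1, Rtp4 and Parp14 then overlapped. TMM factors ranged from 0.861 in tdTomato-negative cells to 1.24 in M1 neurospheres. Without both primary libraries 24 of the 36 did not overlap (11.9% of genes), and without bowel primary cells and M1 neurospheres 29 did not (11.4%).

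Mean log2 levels were higher at the sort for 35 of the 36 genes (49.8% of all genes tested), with a median log2 difference of 2.82 against -0.0022 over all genes. The libraries of a class differ in tissue, route and sort gate and are not replicates of a condition, so the class test sets the difference against that mixed spread. In limma's test 0 of 14687 genes were called at an adjusted p under 0.05 (0.0% higher). At an unadjusted p under 0.05, 647 genes were higher (4.41%) and 414 lower (2.82%), and 29 of the 36 were among the higher ones. Without adipose neurospheres 15 of the 36 were, and without M2 neurospheres 23. The count of all genes at that p, 1061 in both directions, was 523 without M2 neurospheres and 2106 without tdTomato-positive spheroid cells. The smallest adjusted p among the 36 by limma was 0.403, shared by Oas1a, Irf7, Zbp1 and Oasl2. edgeR's quasi-likelihood test on the recovered whole reads also called 0 genes (0.0%), with 1613 at an unadjusted p under 0.05. DESeq2 called 823 genes higher (5.6%) and 86 lower (0.586%), and 23 of the 36 were called higher by it. When both spheroid libraries were left out, limma called 599 genes higher (4.06%), among them 11 of the 36: Gbp2, Gbp3, Gbp7, Igtp, Iigp1, Irf7, Oas1a, Oas2, Oasl2, Rsad2 and Zbp1.

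**Figure D2:**
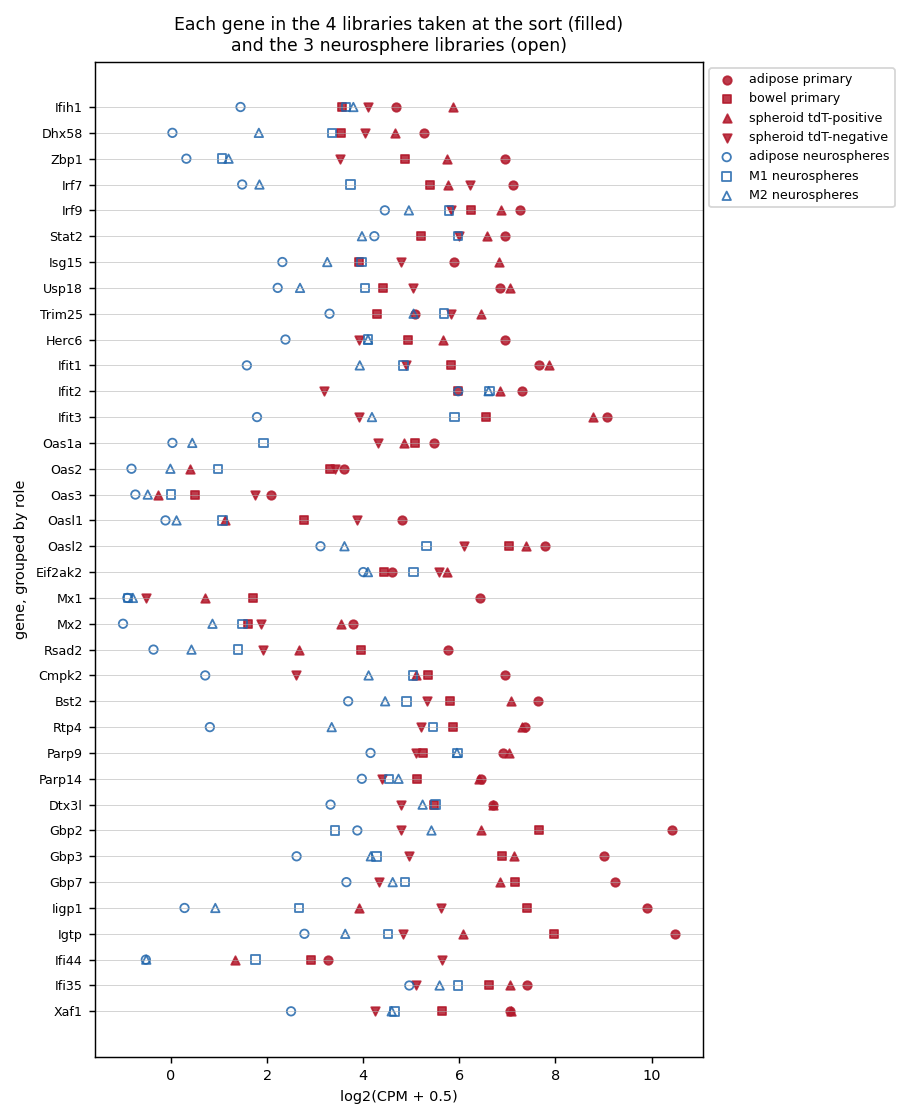
Level of each gene as log2(CPM + 0.5) on the horizontal axis, with filled red symbols for the 4 libraries taken at the sort and open blue symbols for the 3 neurosphere libraries. For Oas1a, Zbp1, Irf7 and Iigp1 the filled symbols all lie to the right of the open ones, while for Ifit2, Trim25 and Parp9 the 2 kinds of symbol are mixed.

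3 pairs of libraries that share no library set cells at a sort against neurospheres of the same tissue. The adipose neurospheres had also passed through 10 days of mixed culture before their sort, which the adipose primary cells had not. With 1 library each there is no replicate check. A gene was called higher or lower by size alone, where the ratio was 4-fold or more and its 95% counting interval, which covers counting error only, lay wholly beyond 2-fold. By the size rule, adipose primary cells exceeded adipose neurospheres for 33 of 36 genes (20.8% of 14773 measured genes were higher and 5.71% lower). The median log2 ratio was 5.63 against 0.012 over all measured genes. Ifit2 (log2 ratio 1.47), Trim25 (1.99) and Eif2ak2 (0.75) did not pass. By that rule, bowel primary cells exceeded M1 neurospheres for 13 of 35 measured members (16.3% of 15422 genes were higher and 6.58% lower). Their log2 ratio was above 0 for 30 of the 35, with a median of 1.31 against 0.075. Of 34 measured members, 23 were higher by the rule in tdTomato-positive spheroid cells than in M2 neurospheres (3.86% of 13432 genes higher, 3.07% lower). The median was 2.76 against 0.021. No member was lower by the size rule in any of the 3 pairs. In the bowel primary pair Trim25 had the lowest log2 ratio, -0.95. The share of members in the bowel primary pair lies nearest to its background, and that of the spheroid pair is set against the smallest background.

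10 of the 36 genes were higher by the size rule in all 3 pairs, namely Mx1, Oas1a, Oasl2, Irf7, Rsad2, Zbp1, Gbp3, Gbp7, Iigp1 and Igtp. Of all tested genes 138 (0.94%) did so and 5 (0.034%) were lower in all 3. The ratio was above 0 in all 3 pairs for 31 of the 36, against 17.9% of genes. A gene entered a pair at 1 CPM or more in either library. Members under 1 CPM in the neurospheres entered only through the library where they were high and could not be called lower. This holds for 11 of the 36 in the adipose pair, and for Mx1 in all 3 pairs. The shares of all genes follow the same rule. In the spheroid pair, 8 of the 36 were among the 100 genes with the highest ratios, led by Oas1a at place 32, Zbp1 at 35 and Ifit3 at 41 of 13432. In the adipose pair 2 were, Mx1 at place 46 and Iigp1 at 48 of 14773, and in the bowel primary pair 0 were.

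The spheroid pair had low levels of lymphocyte and macrophage markers on both sides. In tdTomato-positive spheroid cells 7 of the 12 lymphocyte markers, among them Cd3e, Cd4 and Ms4a1, were at 0 reads, and the sum was 2.04 CPM against 0.995 in M2 neurospheres. Macrophage markers summed to 58.1 CPM there and 63.0 in M2 neurospheres, and endothelial markers to 14.2 and 67.3. Fibroblast markers (10 genes) were higher in the tdTomato-positive cells, with 5235 CPM against 1099 in M2 neurospheres. Mature dendritic markers summed to 278 CPM and 258 CPM, of which Fscn1 gave 203 and 206. Of these, Ccr7 had 110 reads against 0, while Ccl17, Il4i1 and Flt3 were at 0 reads in the tdTomato-positive cells. The part of these cells in the ratios was not tested. The 36 genes summed to 3177 CPM in the same tdTomato-positive cells and to 634 in M2 neurospheres. In both primary pairs the summed immune, endothelial, fibroblast and smooth muscle markers were higher on the primary side together with the interferon-stimulated genes. Fibroblast markers summed to 12122 against 1823 CPM in the adipose pair and to 5456 against 2770 in the bowel primary pair. Smooth muscle markers summed to 462 against 95.2 CPM and to 26851 against 231. Within the mature dendritic list, Fscn1 was lower by the size rule in the bowel primary pair (log2 ratio -3.52). The part of these cell types in those ratios was not tested. The plot of summed levels sets the 36 genes beside some of the marker lists, without the fibroblast markers.

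**Figure D3:**
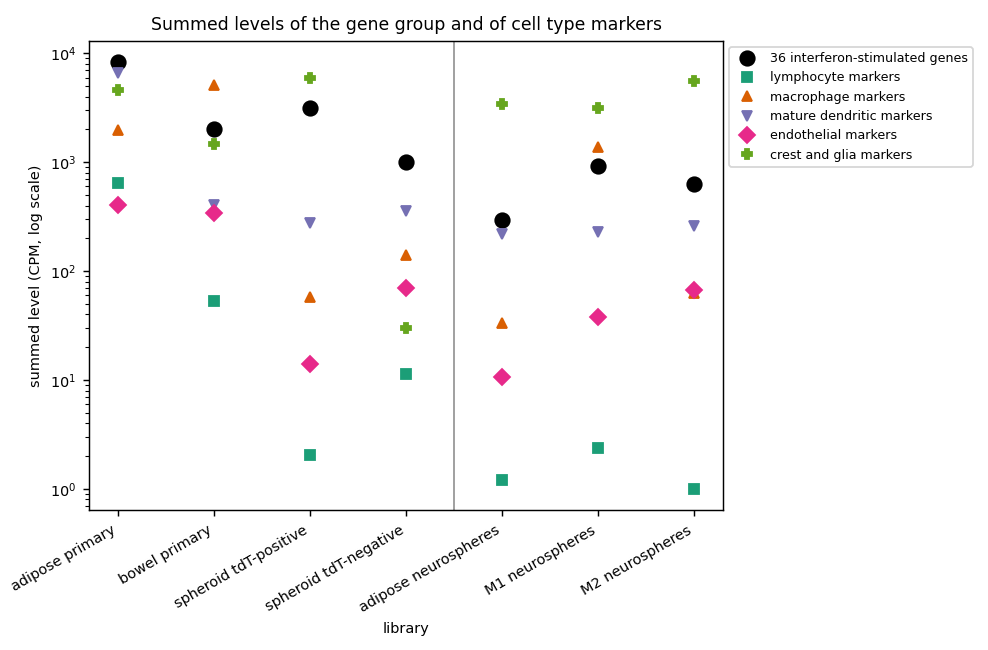
Summed level in CPM (log axis) of the 36 genes and of 5 lists of cell type markers in each library, with the 4 libraries taken at the sort left of the line. The 36 genes sum to 3177 CPM in tdTomato-positive spheroid cells, where lymphocyte markers sum to 2.04 CPM, and to 292.6 CPM in adipose neurospheres.

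With TMM scaling, all 3 sensors of viral RNA had non-overlapping levels. Zbp1 (Entrez 58203; chromosome 2, 173206612 to 173218959), which binds left-handed nucleic acid and can start cell death, was at 123 CPM in adipose primary, 28.6 in bowel primary, 53.1 in tdTomato-positive and 11.0 in tdTomato-negative spheroid cells. It was at 0.747, 1.58 and 1.79 CPM in adipose, M1 and M2 neurospheres, so all 4 libraries at the sort lay far above all 3 neurospheres. Its log2 ratios in the 3 pairs were 7.45, 4.60 and 4.98, and the class difference was 4.64 ± 0.76 (SE; limma adjusted p 0.403). Dhx58, which encodes the regulator LGP2, ranged from 11.1 to 38.0 CPM at the sort and from 0.519 to 9.68 in neurospheres. Its log2 ratio was 6.25 in the adipose pair and 3.13 in the spheroid pair, both past the size rule, and 0.65 in the bowel primary pair. Ifih1, which encodes the double-stranded RNA sensor MDA5, reached its highest level, 57.6 CPM, in tdTomato-positive spheroid cells, above adipose primary cells at 25.0. It was at 11.4 CPM in bowel primary and 12.0 in M1 cells, a pair that did not pass.

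Of the transcription factors of the response, Irf7, which drives further type I interferon genes, separated the classes widely. Irf7 (Entrez 54123; chromosome 7, 141263183 to 141266499) was at 139, 41.3, 74.3 and 54.2 CPM in adipose primary, bowel primary, tdTomato-negative and tdTomato-positive cells, and at 2.29, 12.8 and 3.08 in adipose, M1 and M2 neurospheres. Its class difference was 4.04 ± 0.61 (SE; limma adjusted p 0.403). Irf9 and Stat2, which act in 1 complex at the ISRE, differed less. Irf9 ranged from 56.3 to 153 CPM at the sort and from 21.3 to 54.8 in neurospheres, which touch but do not overlap. Stat2 was at 36.4 CPM in bowel primary cells, below M1 neurospheres at 62.1, and so overlapped. In the adipose and spheroid pairs Stat2 passed the size rule, with log2 ratios of 2.90 and 2.76.

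The ISG15 system comprised Isg15, a ubiquitin-like protein joined to other proteins, Usp18, the protease that removes it and dampens receptor signalling, and the ligases Trim25 and Herc6. Isg15 was at 58.5 CPM in adipose primary, 14.5 in bowel primary, 113 in tdTomato-positive and 27.2 in tdTomato-negative cells, and at 4.48, 15.1 and 9.02 in adipose, M1 and M2 neurospheres. The bowel primary and M1 libraries thus had about the same level, with a log2 ratio of 0.40. Usp18 was also highest in tdTomato-positive cells, with 132 CPM, and had 114 in adipose primary and 5.93 in M2 neurospheres, and a log2 ratio of 4.58 in the spheroid pair. Trim25 had 87.0 CPM in tdTomato-positive cells but 19.1 in bowel primary cells, below M1 neurospheres at 50.8, and passed the size rule in none of the 3 pairs. Herc6 passed in the adipose pair, with 124 against 4.71 CPM. Another annotated gene overlaps 26.6% of its exon bases, which leaves its level uncertain.

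IFIT proteins bind viral RNA that lacks the host cap marks. Ifit1 (Entrez 15957) was at 200 CPM in adipose primary, 56.1 in bowel primary, 234 in tdTomato-positive and 29.3 in tdTomato-negative cells, and at 2.48, 28.0 and 14.7 in adipose, M1 and M2 neurospheres. The tdTomato-negative and M1 libraries were nearly level, while both adipose libraries differed by a log2 ratio of 6.46 (95% counting interval 6.25 to 6.72). Ifit3 reached 539 CPM in adipose primary and 443 in tdTomato-positive cells, against 2.95 and 17.6 in the neurospheres paired with them. Since 51.2% of its 50-base stretches also occur in the near copy Ifit3b, reads of Ifit3 and Ifit3b may have been split or lost, and both carried high ratios in the same pairs (Ifit3b 6.16 and 3.97). Ifit2 was the 1 member with a lower mean at the sort. It was at 156, 62.7, 114 and 8.57 CPM in adipose primary, bowel primary, tdTomato-positive and tdTomato-negative cells and at 62.5, 98.2 and 97.1 in adipose, M1 and M2 neurospheres. The tdTomato-negative library was the lowest of the 7, and the classes overlapped. The class difference of Ifit2 was -0.31 ± 0.89 (SE; limma adjusted p 0.926), and without the tdTomato-negative library it was 0.54 (limma adjusted p 0.628).

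The OAS genes encode enzymes that make the messenger which activates RNase L, and Eif2ak2 encodes the kinase PKR, which halts translation. Oas1a (Entrez 246730; chromosome 5, 120896256 to 120907544) had the smallest unadjusted p of the 36. Its levels at the sort were 44.0, 33.0, 28.3 and 19.4 CPM in adipose primary, bowel primary, tdTomato-positive and tdTomato-negative cells. In adipose, M1 and M2 neurospheres they were 0.519, 3.30 and 0.858 CPM. The lowest level at the sort, 19.4 CPM, lay far above the highest in neurospheres, 3.30 CPM. The class difference was 4.36 ± 0.52 (SE; limma adjusted p 0.403). Of its 50-base stretches 57.6% also occur in Oas1g or Oas1b, so the level is uncertain, and Oas1g had the same order of classes, with 4.41 to 8.59 CPM at the sort and 0.0812 to 0.829 in neurospheres. Oasl2 was at 68.0 to 220 CPM at the sort and 8.13 to 39.2 in neurospheres and passed in all 3 pairs. Oas2, Oas3 and Oasl1 had low levels in tdTomato-positive spheroid cells (0.805, 0.325 and 1.69 CPM) and higher ones in tdTomato-negative cells (10.2, 2.84 and 14.2 CPM). Eif2ak2 varied least of the family, from 15.5 to 52.9 CPM over the 7 libraries.

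Among the effectors that act on nucleotides and viral particles, Mx1 showed the steepest gradient. Mx1, a GTPase that traps viral nucleocapsids, was at 86.3 CPM in adipose primary, 2.76 in bowel primary, 1.13 in tdTomato-positive and 0.201 in tdTomato-negative cells. Neurosphere levels of Mx1 rested on 2 reads in the adipose library, 2 in M1 and 5 in M2. Its log2 ratio in the adipose pair was therefore 10.5 with a counting interval of 9.67 to 14.6, and in the bowel primary pair 5.56 with an interval of 4.74 to 9.68. Mx2 had 0 reads in adipose neurospheres and 848 in adipose primary cells, which is at least 301-fold higher at a floor of 3 reads per library. Rsad2, which encodes viperin and makes a chain-terminating nucleotide, was at 54.1, 15.0, 5.80 and 3.25 CPM in adipose primary, bowel primary, tdTomato-positive and tdTomato-negative cells. Its neurosphere levels were 0.276, 2.12 and 0.842 CPM, with no overlap. Cmpk2, its neighbour on chromosome 12, which encodes a mitochondrial nucleotide kinase, overlapped: tdTomato-negative cells had 5.58 CPM and M1 neurospheres 32.2.

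Bst2, which encodes tetherin, the protein that holds budding virus at the cell surface, was at 198, 55.2, 134 and 39.4 CPM in adipose primary, bowel primary, tdTomato-positive and tdTomato-negative cells and at 12.4, 29.3 and 21.4 in adipose, M1 and M2 neurospheres. The gap between tdTomato-negative cells and M1 neurospheres was small, and the others were well apart. Rtp4, which encodes a receptor-transporting protein, had 1.25 CPM in adipose neurospheres against 164 in adipose primary cells, and 9.65 in M2 neurospheres against 157 in tdTomato-positive cells. In the bowel primary pair it had 58.2 against 43.3 CPM and did not pass. Parp9, Dtx3l and Parp14 lie together on chromosome 16 and act in ADP-ribosylation, Parp9 and Dtx3l as a complex. All 3 were within 84.7 to 131 CPM in adipose primary and tdTomato-positive cells. They differed little between bowel primary cells and M1 neurospheres (log2 ratios from -0.27 to 1.05), and passed the size rule only in the adipose pair.

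The interferon-inducible GTPases act on vacuoles of intracellular parasites and bacteria and respond strongly to interferon gamma. In both primary pairs 5 of 5 members were higher in primary cells by the size rule. Of all genes, 20.8% were higher in the adipose pair and 16.3% in the bowel primary pair. Igtp, Gbp2 and Iigp1 were among the 5 members with the highest levels per kilobase of exon in both primary libraries. Igtp (Entrez 16145; chromosome 11, 58199556 to 58207592) was at 1438 CPM in adipose primary and 250 in bowel primary cells. It was at 66.9 CPM in tdTomato-positive and 27.9 in tdTomato-negative spheroid cells, and at 6.35, 22.3 and 11.8 in adipose, M1 and M2 neurospheres. The primary libraries stood apart from both spheroid libraries, which stood above the neurospheres. Iigp1 (Entrez 60440) had the largest class difference of the 36, 5.66 ± 1.36 (SE; limma adjusted p 0.61). Its levels were 955, 169, 14.5 and 48.4 CPM in adipose primary, bowel primary, tdTomato-positive and tdTomato-negative cells and 0.714, 5.84 and 1.39 in adipose, M1 and M2 neurospheres. The fold was 1414 in the adipose pair, 39.4 in the bowel primary pair and 11.0 in the spheroid pair. Gbp3 and Gbp7 passed in all 3 pairs, whereas Gbp2 passed in both primary pairs (107.5-fold and 27.3-fold) but not in the spheroid pair, where it had 86.9 against 42.3 CPM.

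Of the 3 remaining members, Xaf1, which encodes an antagonist of the apoptosis inhibitor XIAP, was at 133 and 134 CPM in adipose primary and tdTomato-positive cells and at 5.15 and 23.6 in the neurospheres paired with them. Ifi35 was at 33.9 to 169 CPM at the sort and 30.6 to 62.4 in neurospheres, and passed only in the adipose pair. Ifi44 was at 49.2 CPM in tdTomato-negative cells, against 2.03 in tdTomato-positive cells, 9.07 in adipose primary and 6.99 in bowel primary cells. Per kilobase of exon, a scale that allows genes to be ranked within a library, Igtp led in both primary libraries, Ifit3 in tdTomato-positive cells and Bst2 in tdTomato-negative cells. Ifi35 led in all 3 neurosphere libraries. Mx1 had no exon length and was not ranked.

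The levels also differed among the libraries taken at the sort. These comparisons reuse libraries of the 3 pairs and are no independent support for them. Adipose primary cells had a higher level than bowel primary cells for 36 of 36 genes and passed the size rule for 12, with 0 lower (7.09% of 15585 genes were higher and 11.4% lower). The median log2 ratio was 1.75 against 0.088 over all genes. The 12 were Ifit3, Usp18, Mx1, Mx2, Oasl1, Herc6, Zbp1, Gbp2, Gbp3, Gbp7, Iigp1 and Igtp. Mx1 differed most, with a log2 ratio of 4.93. Lymphocyte and mature dendritic markers were higher in adipose primary cells too (641 against 52.9 and 6622 against 403 CPM), macrophage markers were lower (1997 against 5134), and their part in the difference was not tested.

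Bowel primary cells and tdTomato-positive spheroid cells differed in both directions. Of 35 measured members 4 were higher in bowel primary cells (Oas2, Oasl1, Iigp1 and Igtp). That is a smaller share than the 20.4% of all 15232 genes. Ifit3, Isg15, Usp18, Ifih1 and Trim25 were lower, 5 of 35 against 6.57% of genes. Iigp1 was at 169 CPM in primary cells and 14.5 in cultured positive cells, whereas Isg15 was at 14.5 and 113 CPM. With plain CPM scaling 2 genes were higher and 7 lower, counts that have no share of all genes beside them. The levels of 24 of the 36 genes were lower in bowel primary than in tdTomato-positive cells. Macrophage markers summed to 5134 CPM in bowel primary and 58.1 in tdTomato-positive cells, and their part in these differences was not tested.

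In the same spheroids, tdTomato-positive cells had higher Ifit1, Ifit2, Ifit3, Mx1, Cmpk2, Xaf1, Zbp1 and Gbp7 than tdTomato-negative cells (6.64% of 13951 genes were higher). Oas2, Oas3, Oasl1 and Ifi44 were lower in the positive cells, 4 of 36 against 12.5% of genes, which is near the background. Ifit3 was at 443 against 14.5 CPM, a log2 ratio of 4.69 with a counting interval of 4.60 to 4.79. Ifi44 showed the opposite at 2.03 against 49.2 CPM, a log2 ratio of -4.82 with an interval of -5.11 to -4.59. With scaling by total counts 13 members were higher and 4 lower, again without a share of all genes to set beside them. Fibroblast markers summed to 47872 CPM in the negative cells and 5235 in the positive cells.

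**Figure D4:**
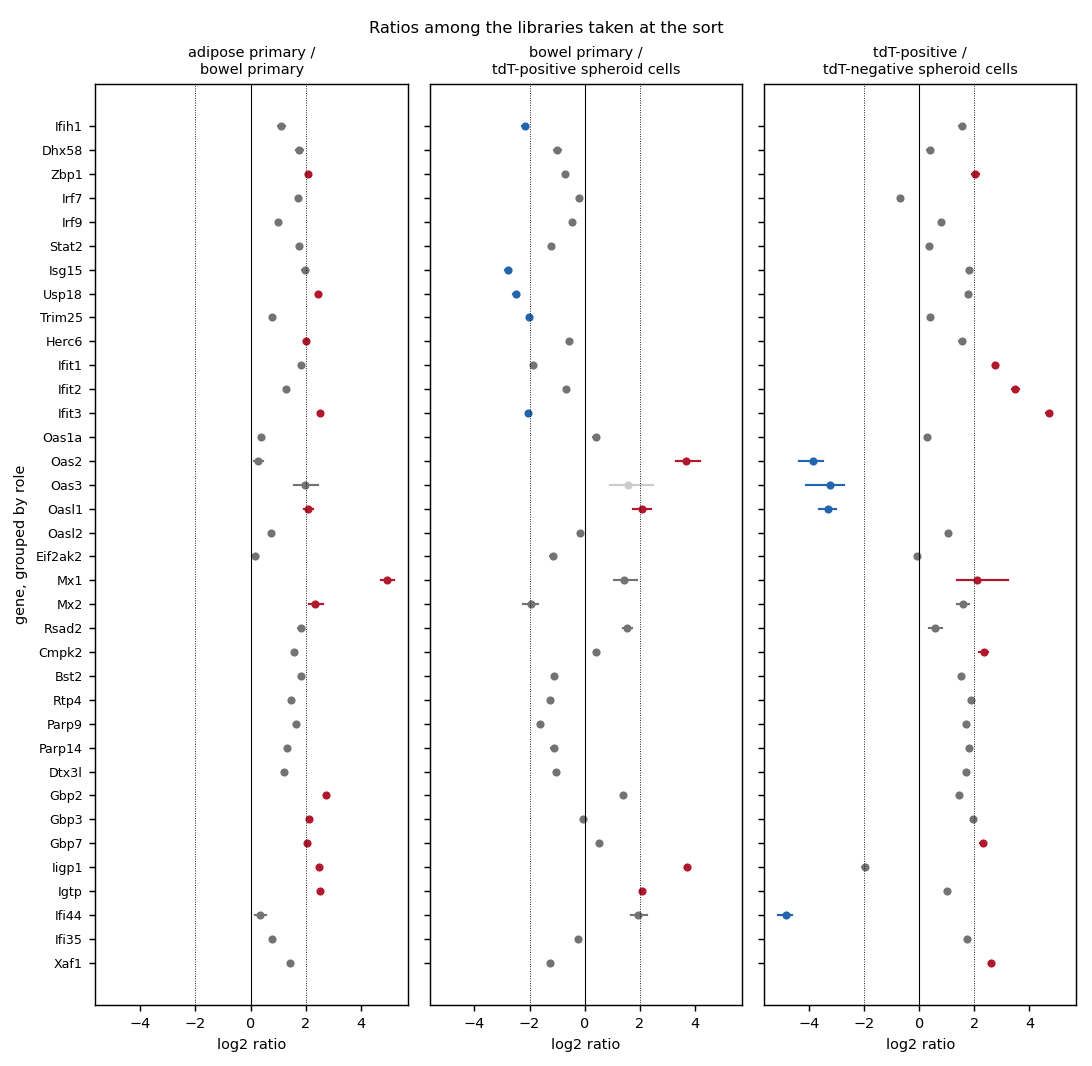
Log2 ratios of each gene with 95% counting intervals among the libraries taken at the sort, drawn as in the plot of the 3 pairs, with blue for genes lower by the size rule. All genes lie right of 0 in the panel of adipose over bowel primary cells (12 red), while the other 2 panels have genes on both sides (4 red and 5 blue, then 8 red and 4 blue).

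Neurospheres differed from each other as well. Adipose neurospheres were lower than M2 neurospheres for 8 of 29 measured members and higher for 0 (8.71% of 13440 genes were lower and 5.33% higher). The 8 were Ifit1, Ifit3, Mx2, Ifih1, Dhx58, Cmpk2, Rtp4 and Xaf1. Cmpk2 was at 1.14 against 16.8 CPM, and Mx2 had 0 against 86 reads, at least 24.9-fold lower at the floor of 3 reads. With TMM scaling, M1 neurospheres had a higher level than M2 for 26 of the 36 genes and than adipose neurospheres for 34. These counts have no share of all genes beside them. M1 neurospheres had the highest macrophage marker sum of the 3 (1382 CPM, of which Lyz2 alone gave 1213). The part of macrophages in these levels was not tested.

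Interferon transcripts themselves were scarce. Of 21 interferon ligand genes, 11 had 0 reads in all 7 libraries. Ifng, which encodes interferon gamma and is made by T and natural killer cells, had 516 reads in adipose primary cells (8.06 CPM), 89 in bowel primary cells (1.54 CPM) and 0 in the other 5 libraries. Against adipose neurospheres this was at least 183-fold higher, and against M1 neurospheres at least 36.7-fold. Ifnb1, the interferon beta gene, had 34 and 6 reads in adipose and bowel primary cells and 0 elsewhere. Ifnz was the 1 ligand with reads in every library, between 3 and 16, and the 14 alpha genes together had at most 7 reads in a library. In tdTomato-positive spheroid cells, where many members were high, Ifnz gave all 4 ligand reads. A count of 0 reads allows a level of up to 0.0464 CPM in that library.

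Transcripts of 5 of the 6 receptor genes were present at 40.8 to 281 CPM in every library. Ifnar1 was at 79.5 to 164 CPM at the sort and at 136 to 207 in neurospheres, which overlap. Ifnar2 was at 94.3 to 163 CPM at the sort and 82.4 to 113 in neurospheres, and Ifngr2 at 74.9 to 125 and 47.8 to 56.5, and with TMM scaling neither overlapped. Ifngr1, the ligand-binding chain of the gamma receptor, was at 281 and 275 CPM in adipose and bowel primary cells, 92.0 and 108 in tdTomato-positive and tdTomato-negative cells, and 69.8 to 151 in neurospheres. Il10rb, a chain shared by the lambda interferon receptor, ranged from 40.8 to 200 CPM over the 7 libraries. Of the 6 receptor genes, 1 was higher by the size rule in each of the 3 pairs, a different one each time: Ifngr1 in the adipose pair, Il10rb in the bowel primary pair and Ifnlr1 in the spheroid pair, the last of these named after its value was seen. With 20.8%, 16.3% and 3.86% of all genes higher in these pairs, 1 of 6 or of 5 measured is near the background of both primary pairs.

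Among the genes of JAK-STAT and IRF signalling, Irf1, an early target of interferon gamma, was at 1219 CPM in adipose primary cells and 148 in bowel primary cells. In tdTomato-positive cells Irf1 was at 73.1 CPM against 51.9 in M2 neurospheres, a ratio that did not pass. Socs3, a feedback inhibitor of JAK signalling that also responds to other cytokines, was at 130 to 623 CPM at the sort and 8.38 to 69.2 in neurospheres. Of the 12 signalling genes, 8 were higher by the size rule in the adipose pair (20.8% of all genes). In the bowel primary pair 4 were (16.3%), and in the spheroid pair 1 was (3.86%). None was lower in the 3 pairs, against 5.71%, 6.58% and 3.07% of all genes, so the absence of lower genes is near the background.

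Among genes of nucleic acid sensing, 5 of 13 measured were higher in the adipose pair (20.8% of all genes). In the bowel primary pair 2 of 12 were (16.3%), and in the spheroid pair 1 of 10 (3.86%). None was lower, against 5.71%, 6.58% and 3.07% of all genes. The bowel primary count of higher genes is at its background. Ddx58, which encodes the sensor RIG-I and is itself induced by interferon, was at 194 CPM in tdTomato-positive cells and 42.4 in M2 neurospheres, a log2 ratio of 2.30. It was at 71.6 CPM in adipose primary, 30.1 in bowel primary and 103 in tdTomato-negative cells, and at 20.4 and 42.1 in adipose and M1 neurospheres. Tmem173, which encodes STING, was at 4.90 CPM in adipose neurospheres, against 65.1 and 74.3 in M2 and M1 neurospheres. Mb21d1, which encodes the DNA sensor cGAS, stayed between 4.09 and 6.92 CPM in all 7 libraries. Myd88, the adaptor of most Toll-like receptors, was at 51.9 to 113 CPM at the sort and 34.8 to 44.6 in neurospheres, without overlap.

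A list of 63 other interferon-inducible genes showed the same order of classes, although it was assembled with results of these data known. Of 62 tested, 41 had non-overlapping levels that were higher at the sort (4.68% of all genes did) and 60 had a higher mean, with a median log2 difference of 2.74. 20 passed the size rule in all 3 pairs (0.94% of all genes did). They were the GTPases Ifi47, Irgm2, Tgtp2, Gbp5 and Gbp6, the DNA-binding Ifi203 and Ifi205, the membrane protein Ifitm1, Oas1g, the exonuclease Isg20, Trim30a, the nuclear body proteins Sp100 and Sp110, Ly6e, the lectin Lgals9, the chemokine Ccl5, Phf11d, Slfn2, Slfn5 and Apol9b. Ifi47 was at 543 CPM in adipose primary cells and 0.698 in the neurospheres paired with them, and at 10.0 against 0.49 in the spheroid pair. Ifitm3, which blocks viral entry, was at 1706 CPM in tdTomato-negative cells, 784 in tdTomato-positive cells and 227 in M2 neurospheres. Ifitm2 reached 845 CPM in tdTomato-negative and Irgm1 998 in adipose primary cells. Cxcl10, a chemokine that attracts T cells, was at 238, 26.2, 139 and 144 CPM in adipose primary, bowel primary, tdTomato-positive and tdTomato-negative cells, and at 1.90, 18.4 and 19.9 in adipose, M1 and M2 neurospheres. Lower genes were few. Slfn9 was lower in bowel primary cells than in M1 neurospheres (2.86 against 25.2 CPM), and Ifit1bl1 was lower in tdTomato-positive cells than in M2 neurospheres (0.449 against 2.07 CPM), both named after their values were seen.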

How the data were processed

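RNA sequencing of 7 libraries, 1 per labelled group, was analysed. The authors deposited CPM values, 1 per Entrez gene and library. The tools were featureCounts, HISAT and bcl2fastq 2.17, with the build mm10, per the submitters' processing notes. Strand use, annotation and other counting settings are not stated in the labels, so antisense and overlapping genes are uncertain. Per the labels' protocols, Trizol extraction, SMART-Seq v4 amplification and Nextera XT libraries were used. Without molecular identifiers, reads amplified by PCR do not count molecules, so intervals and floors cover counting error only. The deposited CPM gave back whole reads (100% of values within 0.05 read), with totals of 51885106 to 65301500. Of 27179 identifiers, 25275 matched the RefSeq table of GRCm38.p6. Exon lengths and shared 50-base stretches came from GENCODE annotation of GRCm38.

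Genes with a mean of at least 1 CPM over 7 libraries (14687) were tested with limma 3.58.1 on log2(TMM-scaled CPM + 0.5), two-sided, with Benjamini-Hochberg adjustment over all of them. This scale understates differences of low genes. Libraries at the sort (4) were set against neurospheres (3). Pairs of single libraries had no test. A gene was measured at 1 CPM or more in either library, and called where the ratio reached 4-fold and its 95% interval (exact, conditional binomial) lay beyond 2-fold, from TMM-scaled reads with a prior count of 2. The alternatives were other scaling, pseudocounts of 0.1 and 2, no filter or one at 5 CPM, edgeR 4.0.16 and DESeq2 1.42.0 on the recovered reads, rules of 2-fold and 8-fold, each library left out, both spheroid libraries left out, and a block for the 3 pairs. Leaving out both primary libraries, or bowel primary and M1, and the counts of non-overlapping genes were added after seeing the data. The steps were tested on simulated data. R 4.3.3 and Python 3.11.15 were used, with scipy 1.17.1, pandas 2.3.3, matplotlib 3.10.9 and numpy 2.4.6.

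The members, the pathway and marker lists and the tests were chosen with earlier results of these data known. All 36 members are named. Of 115 other pathway genes, those with the 3 largest levels of their list, those higher in all 3 pairs and a few key components are named. Some genes that this rule names are left out of the text. Sequences are from RefSeq. No library was left out of the main results.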

Additional observations from a re-analysis of the deposited data

How the results depend on the processing

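Results in the class comparison kept their side of the threshold, with 0 genes and 0 members called by limma or edgeR, under scaling by total counts or DESeq2 size factors, other pseudocounts, other filters, the block for the 3 pairs, and leaving out each library in turn (0 genes each time). The exceptions were DESeq2 on recovered reads, with 909 genes and 23 members called, and limma on the primary libraries and neurospheres alone, with 822 genes and 11 members called; the cause was not tested. Scaling by total counts moved the median log2 difference of all genes from -0.0022 to -0.26 and that of the members from 2.82 to 2.58. Of 674 member differences under alternatives, 635 kept direction and side, 34 became called and 5 reversed, all of Ifit2: 0.25 by edgeR, 0.25 by DESeq2, 0.54 without the tdTomato-negative library, 0.53 with the primary libraries only and 0.54 with the block, with a range of -0.80 to 0.54 over the 7 libraries left out in turn. The count of non-overlapping members was 16 under plain CPM and 21 to 28 with 1 library left out. Fewer libraries make non-overlap easier by construction, for all genes too, so that range is no check of the result. Counts of members past the size rule moved with its fold by construction. A 2-fold rule gave 21 members for bowel primary against M1, 23 for bowel primary against tdTomato-positive cells, 28 for tdTomato-positive against negative cells, 29 for adipose against bowel primary cells and 15 for adipose against M2 neurospheres. An 8-fold rule gave 15 for tdTomato-positive cells against M2, and 2, 6, 1 and 2 for the last 4 of these comparisons in the same order. These counts take higher and lower together and have no share of all genes beside them. They are therefore no result about the members alone. The labels give no replicate numbers that pair samples. The fit with the 3 pairs as a block, without the tdTomato-negative library, called 0 of 14668 genes and 0 of 35 members, 30 of them at an unadjusted p under 0.05. Depth limits Mx1, Oas2 and Oas3, which rested on few reads in neurospheres.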
